A study of Homo sapiens with 3 samples.

Results

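The genes described here are the protein-coding genes of chromosome 19 with a ZNF number as symbol that were clearly counted in HK1 cells, an established nasopharyngeal carcinoma line. RNA was sequenced after an incubation of the cells with activated CD8+ T cells. The chromosome held 250 such genes, and 138 members were selected on their read counts, as those that reached at least 50 counts in at least 1 of 3 libraries, out of 61550 genes in the table. The remaining 112 stayed under 50 counts in every library, and 61 of those had no count in any. The level of the members was thus fixed by how they were chosen. Of the 138, 119 reached 50 counts in every library, 9 were under 50 in WT and passed only through a KO library, 3 were under 50 in both KO libraries and passed only through WT, and 7 were under 50 in 1 KO library.

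The study compared 1 library of HK1 cells labelled WT with 2 libraries labelled FLI1 KO, each made with a different guide RNA (sgFLI1-1 and sgFLI1-2), all with the same T cell incubation. FLI1 is a transcription factor of the ETS family. The labels did not state whether the libraries came from separate cultures, so how much of the spread behind the p-values is technical is not known. With 1 WT library, that spread came from the 2 KO libraries, made with different guides, and from other genes. It holds no measure of the variation of WT. The sources used here do not say whether a KO line was a single clone.

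Proteins of this family carry repeated C2H2 zinc fingers, short folds that hold a zinc ion and read DNA bases. Many also carry a KRAB domain, which binds the corepressor TRIM28 and through it recruits SETDB1 and heterochromatin protein 1, so that the bound DNA is silenced. Chromosome 19 holds the largest set of these genes in the human genome, in clusters that arose by tandem duplication, and many of the encoded proteins bind transposable elements.

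Wherever 3 values follow each other, they stand for WT, the library labelled sgFLI1-1 and the library labelled sgFLI1-2, in this order. Summed over all genes the libraries held 22172158, 23904587 and 22409203 counts. FLI1 had 125, 11 and 109 counts, so its mRNA was low in the library labelled sgFLI1-1 and near the WT value in the library labelled sgFLI1-2 (log2 fold change -1.09, SE 0.84, edgeR adjusted p = 0.515). The place of the latter library in the KO group therefore rests on its label. Of 11 epithelial markers, the keratins KRT8 (40248, 47902 and 44097 counts) and KRT18 were high. KRT17 (996, 790 and 641), SFN (2322, 1778 and 1659) and DSP (2055, 2306 and 2446) were well counted, and EPCAM had 183, 160 and 93. CDH1 (14, 40 and 23), KRT14 (16, 12 and 44) and KRT6A (30, 5 and 3) were low. KRT5 (8, 0 and 7) and TP63 (5, 0 and 0) were at or near 0. Of 19 T cell markers 14 had no count in any library, and of the 6 defining ones only PTPRC had any (1, 6 and 0). The summed level of the T cell list was 1.2, 0.0349 and 0.651 FPKM (fragments scaled to transcript length and library size). Most of the WT sum was CD7 (0.943 FPKM in WT), a gene with 36, 0 and 13 counts, and LCK had 8, 0 and 13.

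The share of all counts that fell on these zinc finger genes was nearly the same in the 3 libraries. The 138 members together took 34946, 37683 and 35158 counts, which is 0.158%, 0.158% and 0.157% of all counts. Most members were weakly expressed. Their median level was 1.95, 1.84 and 1.88 FPKM, against 10, 9.83 and 10 FPKM for all protein-coding genes with the same count minimum, and 117 members (84.8%) had a mean under 5 FPKM. In bulk RNA, fewer cells expressing a gene and less RNA per cell cannot be told apart. Low counts also limit what could be seen, since the median standard error of a member's log2 fold change was 0.336 and that of all protein-coding genes with the same minimum was 0.197.

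Between the KO libraries and WT, 1 member was called lower (ZNF428) and 1 higher (ZNF564), where a call means an edgeR adjusted p under 0.05, over all 15483 genes tested, and a change of at least 2-fold. The same rule called 2.95% of all genes tested lower and 1.83% higher, or 4.78% in either direction, and 1.45% of the members. Among protein-coding genes with the same count minimum it called 3.57% lower and 2.15% higher, or 5.73% in either direction. The adjusted p alone was passed by the same number of members, 2, beside 6.88% of all genes tested and 8.62% of those protein-coding genes. At an unadjusted p under 0.05 there were 9 members (6.52%) against 20.8% and 24.3%. The median log2 fold change of the members was -0.01, with the middle 50% between -0.33 and 0.21, and 68 of 138 had a positive value. The sign of this median is not firm, since it was 0.05 with quantile normalization. The median of all genes tested was 0.001. These shares describe the members beside the other genes and were not tested, because the members had been chosen with earlier results of these data known.

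ZNF564 (ENSG00000249709, chromosome 19, 12525373 to 12551542 on the minus strand, GRCh38) encodes a KRAB zinc finger protein with 15 C2H2 fingers by pattern search. Its counts were 8, 142 and 105, or 0.108, 1.87 and 1.47 FPKM. Both KO libraries lay far above WT. The log2 fold change was 3.86 (SE 0.55, 14.6-fold, edgeR adjusted p = 0.0017). ZNF564 entered the list through the KO libraries only, so the count rule itself required it to be higher there.

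The reads of ZNF564 could not be separated from those of a neighbor. ENSG00000269693, a protein-coding gene without a symbol on the same strand (12525720 to 12580975), overlaps ZNF564 and ZNF490, and 82.3% of the 75-base stretches of the ZNF564 transcript also occur in its transcript. Its counts were 93, 0 and 0, which is at least 33.1-fold and 31.5-fold lower when 0 is set to a floor of 3 counts in each library. The sum of ZNF564 and ENSG00000269693 was 101, 142 and 105 counts, a log2 ratio to WT of 0.40 and 0.03. Every member was also summed with its same-strand overlapping genes that are not members, and the whole table was fitted again. ZNF564 then had a log2 fold change of 0.22 (edgeR adjusted p = 0.784) and was not called. Over all settings tried its adjusted p ranged from 0.000133 to 0.939. That summing also added the counts of ENSG00000269693 to ZNF490, whose log2 fold change went from 0.37 to -1.09 (edgeR adjusted p = 0.1725). The rise of ZNF564 in the KO libraries thus stood beside a loss of similar size in the overlapping gene. ZNF490, at 53, 55 and 87 counts, shares 56.3% of its stretches with the same gene, and the 3 genes together gave 154, 197 and 192 counts. ZNF564 and ZNF490 are therefore uncertain as single genes.

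**Figure D1:**
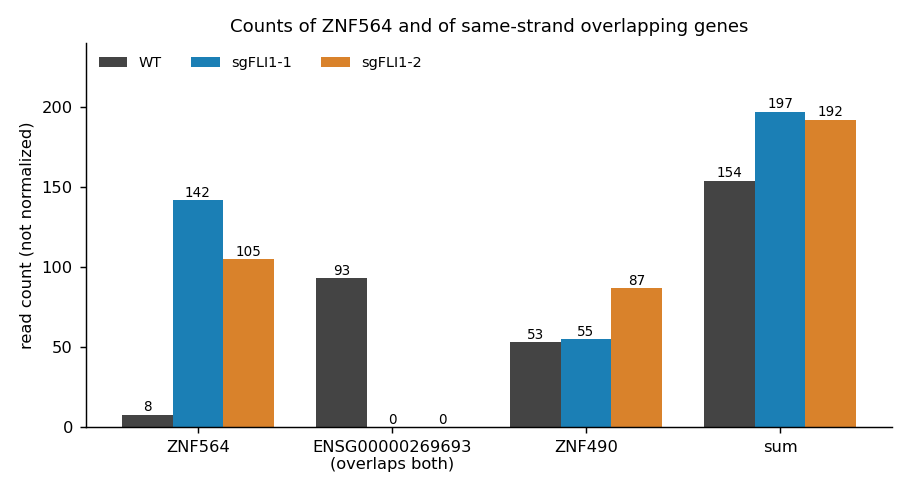
Read counts, not normalized, of ZNF564, of ENSG00000269693, of ZNF490 and of their sum, with 1 bar per library (WT, sgFLI1-1 and sgFLI1-2). ZNF564 goes from 8 to 142 and 105 while ENSG00000269693 goes from 93 to 0 and 0, and the sum of the 3 genes is 154, 197 and 192.

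The start regions of both called members are shown because FLI1 belongs to the ETS factors, which bind around a GGAA core. Each is the RefSeq window (GRCh38.p14) from 250 bases before to 50 bases after the start, printed 5′ to 3′ on the gene's minus strand, with the letters CCGGAA, or TTCCGG for the opposite strand, in capitals. On DNA these spellings can overlap by their shared CCGG.
ZNF564, chr19:12551433-12551732, minus strand: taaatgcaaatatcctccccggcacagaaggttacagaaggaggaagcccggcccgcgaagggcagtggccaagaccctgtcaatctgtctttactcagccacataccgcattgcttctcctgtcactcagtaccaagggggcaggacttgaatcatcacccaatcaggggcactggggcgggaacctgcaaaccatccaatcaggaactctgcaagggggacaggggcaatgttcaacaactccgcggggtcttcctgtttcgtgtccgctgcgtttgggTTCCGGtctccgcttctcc
ZNF428, chr19:43619580-43619879, minus strand: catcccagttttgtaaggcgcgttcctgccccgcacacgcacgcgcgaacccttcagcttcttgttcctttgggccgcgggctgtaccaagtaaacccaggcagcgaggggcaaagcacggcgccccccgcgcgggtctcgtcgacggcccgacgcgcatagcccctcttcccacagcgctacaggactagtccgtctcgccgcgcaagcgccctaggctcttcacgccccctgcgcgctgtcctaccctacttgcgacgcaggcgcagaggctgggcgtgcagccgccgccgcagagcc
The ZNF564 window held 1 match to CCGGAA or TTCCGG and the ZNF428 window 0. Both windows also hold GGAA or TTCC outside these spellings, which was neither marked nor counted. Windows were found for 127 of 138 members, and 72 of them (56.7%) held the motif on either strand, counting the first listed start of each gene, beside 17.6% of 27305 genes in the table and 31.8% of the protein-coding genes with the same count minimum. Members with and without the motif had nearly equal median log2 fold changes (0.00 for 72 and -0.05 for 55). A match of these letters is a description of the window and not a binding site.

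ZNF428 (43607224 to 43619629, minus strand) has a single C2H2 finger by pattern search and no KRAB pattern. Its counts were 410, 168 and 207, or 14.8, 6.0 and 7.43 FPKM. Both KO libraries lay below WT. The log2 fold change was -1.18 (SE 0.27, 2.27-fold lower, edgeR adjusted p = 0.0259), but DESeq2 gave an adjusted p of 0.0679 and did not call it, and over all settings tried the adjusted p ranged from 0.016 to 0.31. The gene overlaps SRRM5 on the opposite strand, which had only 13, 7 and 9 counts.

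The genes beside ZNF428 did not share one direction. CADM4, a cell adhesion gene on the same strand, had 402, 172 and 321 counts (log2 fold change -0.75, SE 0.35, edgeR adjusted p = 0.246). IRGQ on the other side had 219, 265 and 271 counts. ZNF576, also a member, had 206, 337 and 282 counts (0.53, SE 0.27, edgeR adjusted p = 0.307). None of these 3 neighbors passed the test.

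Beside ZNF428, 2 further members were at least 2-fold lower in both KO libraries without passing the test. ZNF114 had 96, 24 and 45 counts (log2 fold change -1.52, SE 0.51, edgeR adjusted p = 0.113). ZNF497 had 62, 21 and 28 counts (-1.39, SE 0.53, edgeR adjusted p = 0.17). Both were counted at 50 or more in WT only, so the count rule itself required them to have fewer counts in the KO libraries. By this size rule 3 members were lower and 1, ZNF564, was higher, beside 6.21% and 4.17% of all genes tested and 4.06% and 2.43% of protein-coding genes with the same minimum. Among the 119 members with 50 or more counts in every library, 1 was lower and 0 were higher.

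The other members with the lowest fold changes were ZNF57 (90, 29 and 67 counts), ZNF813 (91, 53 and 46) and ZNF296 (172, 109 and 97). ZNF57 was low in the library labelled sgFLI1-1 alone, with a log2 ratio to WT of -1.73 there and -0.45 in the library labelled sgFLI1-2. ZNF296, which has been described with pluripotency factors in mouse, was at a similar level in both KO libraries (log2 fold change -0.80, SE 0.34, edgeR adjusted p = 0.216).

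Among the members with the highest fold changes beside ZNF564, the best counted was ZNF260, described in rodents as a cardiac transcription factor. It had 280, 499 and 452 counts (log2 fold change 0.70, SE 0.22, edgeR adjusted p = 0.0975). Its neighbor ZNF529 had 168, 271 and 281 counts (0.66, SE 0.29, edgeR adjusted p = 0.227). Both KO libraries lay above WT for each, by less than the test needed. ZNF567, which lies close by, had 31, 77 and 57 counts (1.05, SE 0.50, edgeR adjusted p = 0.272), and ZNF283 had 103, 168 and 180 (0.70, SE 0.34, edgeR adjusted p = 0.284). ZNF567 was under 50 counts in WT, so the count rule itself required it to be higher in a KO library.

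**Figure D2:**
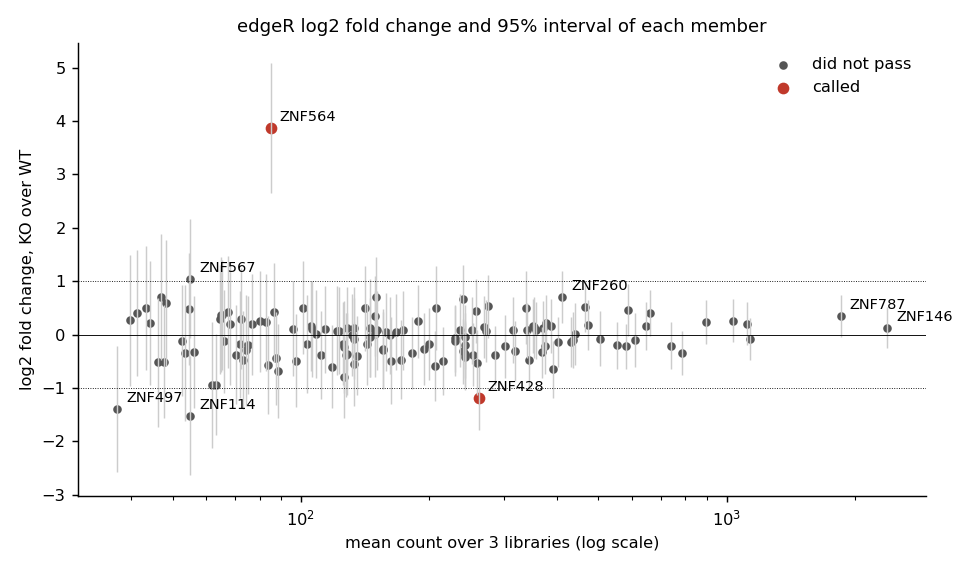
edgeR log2 fold change of KO over WT for each of the 138 members (points) with its 95% interval (lines), against the mean count over 3 libraries on a log scale; dotted lines mark 2-fold. ZNF564 at 3.86 and ZNF428 at -1.18 are the called members, and the intervals narrow to the right.

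How tightly a member could be bounded depended on its count. The 95% interval lay within 2-fold of WT in either direction for 66 members (47.8%), beside 51.8% of all genes tested and 70.0% of protein-coding genes with the same minimum. With the members in 3 groups of 46 by mean count, that held for 2 in the group of lowest counts (means of 37 to 114), for 26 in the middle group and for 38 in the group of highest counts (252 to 2380). For most members of the first group, this depth therefore left changes of 2-fold open. Other protein-coding genes in the same ranges of mean count had an interval within 2-fold in 5.07%, 37.3% and 81.1% of cases. They were called in 9.16%, 8.93% and 5.0% of cases, beside 1, 0 and 1 of the 46 members of each group. In the highest range these other genes had a median mean count of 855, beside 389 for the members, so depth was not matched there.

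The 6 members of highest mean FPKM had no KRAB pattern. ZNF787 was highest, with 31.8, 43.1 and 38.7 FPKM (1523, 2191 and 1846 counts, log2 fold change 0.34, SE 0.18, edgeR adjusted p = 0.316). ZNF146, an all-finger protein found overexpressed in pancreatic and colorectal tumors, followed at 26.1, 29.7 and 28.1 FPKM (2185, 2617 and 2351 counts, 0.12, SE 0.17). ZNF580, ZNF414, ZNF444 and ZNF581 had means between 11.9 and 21.4 FPKM. None of these 6 passed the test.

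Taking all members, 111 had a KRAB pattern near the start of the protein translated from the GENCODE canonical transcript and 27 had none there. The rest of each protein was not searched, so a KRAB domain further along would be missed. Members with the pattern had a median of the mean levels of 1.49 FPKM and 13 fingers, those without it 5.83 FPKM and 9 fingers. Their median log2 fold changes were -0.05 and 0.08, each far inside the spread of single members. The number of fingers ranged from 1 (ZNF428) to 31 (ZNF91), with a median of 12, and across the 138 genes it had almost no relation to the log2 fold change (Pearson r 0.113, Spearman rho 0.032, a description across genes that share libraries). Gene length gave r 0.095 and rho 0.069.

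None of the 11 members with a described function passed the edgeR test. ZNF91, which represses SVA retrotransposons in humans, had 114, 147 and 104 counts (log2 fold change 0.07, SE 0.37). ZNF611, which also binds SVA elements, had 104, 84 and 75 counts (-0.45, SE 0.39). ZNF274, which recruits SETDB1 to the 3′ ends of zinc finger genes, had 617, 712 and 494 counts (-0.10, SE 0.23). The edgeR adjusted p of these 3 lay between 0.573 and 0.937.

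ZNF350, a partner of BRCA1, had 39, 41 and 53 counts. ZNF420, a repressor of p53 activity, had 35, 68 and 42 counts (log2 fold change 0.58, SE 0.53), high in the library labelled sgFLI1-1 only. ZNF675, an inhibitor of TRAF6 signaling, had 157, 129 and 120 counts. ZNF224, a repressor of aldolase A, had 237, 201 and 251 counts, with the KO libraries on either side of WT. ZNF331, an imprinted gene broken in some thyroid adenomas, had 197, 113 and 178 counts (-0.49, SE 0.37). ZNF175, which acts on the HIV-1 promoter in macrophages, had 69, 99 and 72 counts. ZNF432 had 150, 108 and 98 counts (-0.60, SE 0.35, edgeR adjusted p = 0.371), so that both KO libraries were under WT without passing. In all, 11 of 15 listed genes with a described function were members. Of the others, ZNF93, ZNF649 and ZNF568 had no count in any library and ZNF382 had 0, 8 and 0.

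Along the chromosome, members were set in 6 stretches by the start of the gene. The stretch from 27 to 40 Mb stood out by its median, and the way members entered the list bore on it. Its 13 members had a median log2 fold change of 0.48, and 11 were positive, while 81 other protein-coding genes there had a median of -0.11. However, 5 of these 13 were under 50 counts in WT and could be members only by being higher in a KO library (ZNF566, ZNF567, ZNF420, ZNF585A and ZNF607). ZNF566, for example, had 32, 65 and 44 counts (log2 fold change 0.70, SE 0.53, edgeR adjusted p = 0.506). The 8 with at least 50 counts in WT had a median of 0.12, and 6 of them were positive. None of the 13 was called.

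The longest run, from 51 Mb to the end of the chromosome, held 68 members with a median of -0.16, 25 of them positive, beside -0.09 for 49 other protein-coding genes. The 23 members from 8 to 19 Mb had a median of 0.15, the 10 from 19 to 27 Mb -0.08, the 19 from 40 to 51 Mb 0.08 and the 5 from 0 to 8 Mb -0.47. Each stretch held both signs. Genes of 1 stretch share duplicated sequence and are not independent, and no test was run on the stretches.

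**Figure D3:**
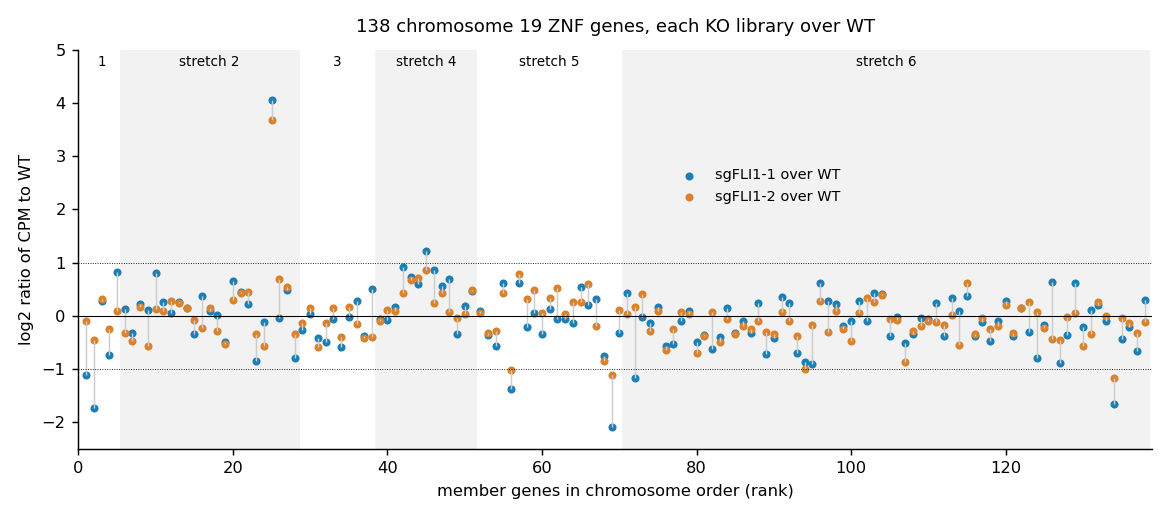
log2 ratio of CPM (counts scaled to library size) in each KO library to WT for the 138 members in chromosome order (rank), with a gray line joining both KO values of a gene and shaded blocks for the stretches 1 to 6 (0 to 8, 8 to 19, 19 to 27, 27 to 40, 40 to 51 Mb and the rest). Points scatter around 0 within 2-fold (dotted lines) for most genes, and ZNF564 alone stands near 4.

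Each KO library was also set against WT alone. With 95% exact intervals for counting error only, 30 members were above WT, 47 below and 61 held 0 in the library labelled sgFLI1-1. In the library labelled sgFLI1-2 these numbers were 21, 32 and 85. The interval held 0 for 44.2% and 61.6% of the members, beside 29.5% and 35.4% of 8565 other protein-coding genes whose mean counts lay in the members' range. Such intervals leave out the spread between libraries and become narrower with the count, so these shares are a description of single libraries. The widest gaps between the KO libraries were those of ZNF613 (61, 29 and 70 counts), ZNF57 and ZNF814 (60, 100 and 45). For ZNF613 and ZNF814 the KO libraries lay on opposite sides of WT. The median log2 ratio of all members was -0.05 in each KO library, and on log2(FPKM + 1) it was -0.06 and -0.03.

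Members just inside and just outside the count minimum were alike in level. Inside, ZNF234 had 34, 35 and 50 counts, ZNF235 33, 51 and 40 and ZNF585A 33, 52 and 45. Outside, ZNF837 had 45, 31 and 13 counts, ZNF85 25, 45 and 36 and ZNF565 43, 31 and 38.

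The deposited counts and FPKM could differ for a gene. In 11 members the ratio to WT by FPKM and by counts differed by over 0.5 on the log2 scale in a KO library. ZNF562 had 795, 667 and 763 counts but 2.79, 4.89 and 2.60 FPKM, so it was lower by counts and higher by FPKM in the library labelled sgFLI1-1. ZNF226 had 129, 133 and 134 counts but 2.48, 1.38 and 3.04 FPKM. Some members share sequence with another gene: the median share of 75-base stretches is 0.105%, and 22 members share over 10%. The other gene can be an annotation that overlaps the same locus, as ENSG00000269693 does for ZNF564. Sharing therefore need not mean near-identical genes at different places. With other members left out, 40 members overlap a same-strand gene with counts. Overlaps between members, such as ZNF28 and ZNF468, are not in this number.

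The partners that KRAB proteins act through were present in all libraries. Of 29 genes of the TRIM28 corepressor list all were tested and 0 were called by edgeR or by DESeq2, with 3 at an unadjusted edgeR p under 0.05 and a median log2 fold change of 0.04. TRIM28 itself had 14957, 16170 and 13839 counts (-0.06, SE 0.15, edgeR adjusted p = 0.874). SETDB1, the H3K9 methyltransferase it recruits, had 868, 704 and 844 counts (-0.22, SE 0.20). The largest values were those of the deacetylase HDAC2, with 3649, 6386 and 5220 counts (0.61, SE 0.18, edgeR adjusted p = 0.0772), and of UHRF1, with 6952, 5056 and 5231 (-0.49, SE 0.16, edgeR adjusted p = 0.113).

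Other zinc finger genes are given for comparison. The 187 ZNF genes of other chromosomes with the same count minimum had a median log2 fold change of -0.09, with 3 called lower and 1 higher. That negative median came with the genes of chromosome 7, since the 164 on the remaining chromosomes had a median of 0.01, and 82 of them were positive. The 616 other protein-coding genes of chromosome 19 had a median of -0.12, with 24 called lower and 7 higher. Of 17 further C2H2 genes of chromosome 19 without a ZNF symbol, 7 were tested and 0 called by edgeR or DESeq2 (0 at an unadjusted edgeR p under 0.05), and 8 had no count in any library. ZBTB7A, a POZ-domain repressor, had 1080, 964 and 1055 counts.

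**Figure D4:**
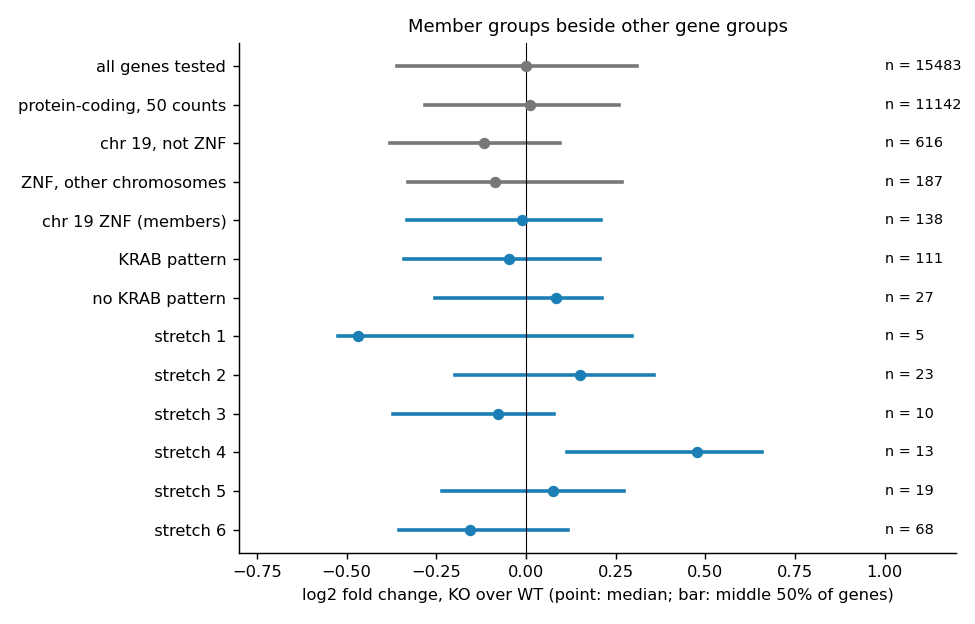
Median log2 fold change of KO over WT (points) and the middle 50% of genes (bars) for all genes tested, other gene groups (gray) and the members with their groups (blue), with the number of genes at the right. The members center on -0.01, and stretch 4 (27 to 40 Mb) has its median at 0.48 with 13 genes.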

How the data were processed

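Poly-A RNA-seq counts and FPKM of 1 WT and 2 FLI1 KO libraries were used, grouped by the genotype label. The KO1 and KO2 columns were taken as sgFLI1-1 and sgFLI1-2 from their numbers, and a swap would exchange single-library values only. Per the labels, the authors used fastp (0.23.2) for trimming, HISAT2 (2.0.4) for alignment to GRCh38.p12 and StringTie (1.3.4d) for quantification. The deposited counts are raw whole numbers for each gene. For these, neither the tool nor its use of strand is given in the sources used here. FPKM values of the same genes were deposited by the authors beside them. The table held 61550 genes and 2 empty lines.

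Counts were tested with edgeR (4.0.16, R 4.3.3; glmQLFit and glmQLFTest, two-sided) after TMM scaling and filterByExpr (minimum count 10), with Benjamini-Hochberg adjustment over 15483 genes. The fit had 1 residual and 9.56 prior degrees of freedom, so the spread came from the KO libraries and from other genes. SE was taken as the log2 fold change divided by the root of the F statistic, and 95% intervals used the t distribution. Ratios per library used CPM, with 3 counts as the floor. The exact 95% intervals of these ratios hold counting error alone, unlike the edgeR intervals. The FPKM change used log2(FPKM + 1), which understates changes of low genes.

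Fingers, KRAB patterns and shared 75-base stretches came from GENCODE 44 canonical transcripts, in place of RefSeq proteins; 135 of 138 members had the same coordinates there. On simulated data for this comparison (15483 genes), 27 of 100 genes changed 2-fold and 71 of 100 changed 4-fold were called, with 9 unchanged genes. Of the 2-fold genes, 35 passed the adjusted p. The changed genes were drawn from all genes tested, whose median mean count was 415, beside 156 for the members. These rates are therefore not those of the members.

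The members, gene lists and tests were chosen with earlier results of these data known. Named were called members, filled to 6 per direction by fold change with values only (same direction in both KO libraries, and at least 50 counts in WT or in both KO libraries, which leaves out ZNF566 and ZNF420), the 6 of highest FPKM, 15 genes of described function, the 3 with the widest gap between KO libraries and 3 on each side of the count minimum. Genes named among overlapping or neighboring genes were chosen after their values were seen. Alternatives were median-of-ratios scaling, no filter, a minimum of 50 counts, DESeq2 (1.42.0), quantile normalization with limma (3.58.1), other size thresholds and leaving out each KO library. Summing each member with overlapping same-strand genes that are not members was added after seeing the data.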

Additional observations from a re-analysis of the deposited data

How the results depend on the processing

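With 1 WT library and 1 residual degree of freedom, and weakly counted members, small changes were out of reach. No paired analysis was possible because WT has 1 library and shares fewer than 2 replicate numbers with the KO group. Calls were 1 lower and 1 higher with median-of-ratios scaling and with a minimum of 50 counts, and without a fold threshold. Without a filter 0 and 0 members were called (smallest adjusted p 0.131), but all genes then gave only 38 lower and 3 higher calls, and quantile normalization with limma called 0 genes of all, so 0 and 0 members (smallest adjusted p 0.26). DESeq2 called 0 lower and 1 higher, with 331 lower and 240 higher among all genes. Summing overlapping genes left 1 lower and 0 higher with edgeR and 0 and 0 with DESeq2, and among members with 50 counts in every library 0 were higher. ZNF564 had an adjusted p from 0.000133 to 0.939 and ZNF428 from 0.016 to 0.31 over these settings. The median log2 fold change of the members, -0.0114, was -0.0028 with median-of-ratios scaling and with DESeq2, -0.0061 without a filter, -0.0205 with a minimum of 50 counts, 0.0504 with quantile normalization, -0.0455 and -0.0362 with overlapping genes summed (edgeR and DESeq2) and -0.0469 for members with a mean of 50 counts. Without 1 KO library it was -0.0506 to -0.0453, with 4 to 6 members lower and 1 to 2 higher by the size rule. At 1.5-fold the size rule gave 5 lower and 5 higher, and at 4-fold 0 lower and 1 higher. With a pseudocount of 0.1 the FPKM median in the library labelled sgFLI1-1 was -0.0896. For single named members, the settings with a test gave 231 values, of which 223 kept direction and side of the threshold and 8, all of ZNF564 or ZNF428, lost a call. Leaving out 1 KO library gave 66 values without a test, and 9 changed sign (ZNF414, ZNF91, ZNF224, ZNF234, ZNF613, ZNF350, ZNF581, ZNF814 and ZNF274), none of a called member.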

Other observations

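Among members with an unadjusted p under 0.05 and no call, values not given above are those of ZNF791 and ZNF587, both chosen after their values were seen. ZNF791, which lies close to the ZNF564 locus, had 349, 525 and 517 counts in WT, sgFLI1-1 and sgFLI1-2 (log2 fold change 0.52, SE 0.21, edgeR adjusted p = 0.195). ZNF587 had 506, 291 and 377 counts in the same order (-0.65, SE 0.24, edgeR adjusted p = 0.153).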
